A study of Mus musculus with 45 samples.

Results

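The 9 mammary tumors of the MMTV-PyMT model were set against tumors of 7 other genetically engineered mouse models by array comparative genomic hybridization, which weighs the copy number of tumor DNA against that of a reference DNA. The MMTV-PyMT tumors were taken by the model named in their labels and made up 9 of the 45 tumors of the series, with 1 array for each tumor. All were invasive primary mammary tumors dissected from female mice, and the reference was pooled mouse spleen. The 36 other tumors came from MMTV-c-Myc (n = 5), MMTV-Wnt1 (n = 5), MMTV-H-Ras (n = 5), MMTV-Her2/neu (n = 5), C3(1)/SV40 T/t-antigens (n = 5), BRCA1fl/fl;p53+/-;MMTV-cre (n = 5) and p53fl/fl;MMTV-cre transplant (n = 6) mice. No probe measures the polyoma transgene, so the labels of the MMTV-PyMT arrays could not be checked. The labels give no age or strain, and nothing in them says whether tumors of a model came from separate mice, so that p-values measure the spread between these tumors alone.

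MMTV-PyMT mice express the middle T antigen of polyoma virus from the promoter of the mouse mammary tumor virus, which is active mainly in mammary epithelium. Middle T antigen has no enzyme activity of its own. It sits at the membrane, binds protein phosphatase 2A and Src family kinases, and once phosphorylated recruits Shc and phosphatidylinositol 3-kinase, which feed the Ras-MAPK and Akt pathways. The model is known for early multifocal tumors that spread to the lung. The other MMTV transgenes and the MMTV-cre deletions act in the same tissue, and the C3(1) promoter drives the SV40 antigens there and elsewhere. The label of the p53-deleted model names a transplant and does not say what was transplanted.

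The labels name Cy5 as the dye of the tumor, but the log2 ratios below are Cy3 over Cy5, the direction of the authors' interval table, which opposes the labels. That table holds 56 MMTV-PyMT intervals of 3 or more probes whose mean reaches 0.2 in size, and all 56 had the sign of Cy3 over Cy5 on the same array. Over all 45 arrays 740 of 755 such intervals (98.0%) did. If the dyes were used as the labels say, each gain described here is a loss and each loss a gain, with the same sizes and p-values. With Cy3 over Cy5, Brca1 was at -2.49 to -0.75 in the tumors of the Brca1-deleted model, and the Wnt1 probe had a mean of 1.06 in MMTV-Wnt1. With the sign turned, the deleted gene would read as a gain and the transgene as a loss. The other genes altered by construction overlapped the remaining models in their own, with means of 0.04 for Erbb2 in MMTV-Her2/neu, -0.03 for Hras1 in MMTV-H-Ras, 0.17 for Myc in MMTV-c-Myc and -0.19 for Trp53 in p53fl/fl;MMTV-cre transplant tumors, against 0.05, -0.12, 0.29 and -0.12 in the remaining models other than MMTV-PyMT. Each array gave 42235 probes, centred on the autosomal median. A segment mean of at least 0.2 in size was called a gain or a loss, and each of 2057 autosomal bins of 1 Mb took the state of most of its probes. The SD of a single probe was 0.18 to 0.47 in MMTV-PyMT arrays and 0.16 to 0.48 in the others. Among MMTV-PyMT arrays it was highest in PyMT_11567 (0.47) and PyMT_11570 (0.44), which lie on 1 slide with an MMTV-Wnt1 tumor and carry another dye normalization code than the other 7 MMTV-PyMT arrays. The bin profiles of these 2 tumors had a Pearson's r of 0.707 with each other although PyMT_11567 had no altered bin, and that MMTV-Wnt1 tumor had an r of 0.687 with PyMT_11570. Among the other models, an MMTV-Her2/neu and a C3(1) tumor had nearly the same profile (r = 0.960), as did a further such pair (r = 0.928), and the Wnt1 probe of 1 MMTV-Wnt1 tumor was at 0.07. Results that change without these 5 arrays, or without PyMT_11567 and PyMT_11570, are named below. No array has a second hybridization, and the number of arrays limits the precision.

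MMTV-PyMT tumors carried fewer copy number changes than the 36 other tumors as a group, though not fewer than MMTV-c-Myc tumors, and what they carried was nearly all gain. The altered share of the autosomal bins was 18.7% in PyMt 3, 13.2% in PyMt341, 11.9% in PyMt435, 7.63% in PyMt317, 7.10% in PyMT_11570, 5.30% in PyMt342, 0.0486% in PyMt 4 1 and PyMt427, and 0% in PyMT_11567. The 3 tumors at the low end had at most 1 altered bin each. The mean over the 9 tumors was 7.09% ± 6.58 (SD, n = 9), against 28.3% ± 26.4 (SD, n = 36) in the other models, where the lowest was 0%, the median 22.6% and the highest 87.9%. The difference of -21.2 points had an exact permutation p of 0.0209 (two-sided), and the call was lost without PyMT_11567 and PyMT_11570 (-20.2 points, exact permutation p = 0.0505) and over shared slides (-8.41 points, exact permutation p = 0.373). The groups overlapped, since the highest MMTV-PyMT tumor lay below the median of the others and several tumors of other models were near 0. Called segments numbered 7.67 ± 5.70 (SD, n = 9) in an MMTV-PyMT tumor and 28.0 ± 26.4 (SD, n = 36) in the others (exact permutation p = 0.0246). This call was lost over the arrays of slides shared with other models (-8.44 segments, exact permutation p = 0.205) and where single deviating probes were kept (-75.8 segments, exact permutation p = 0.108).

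**Figure D1:**
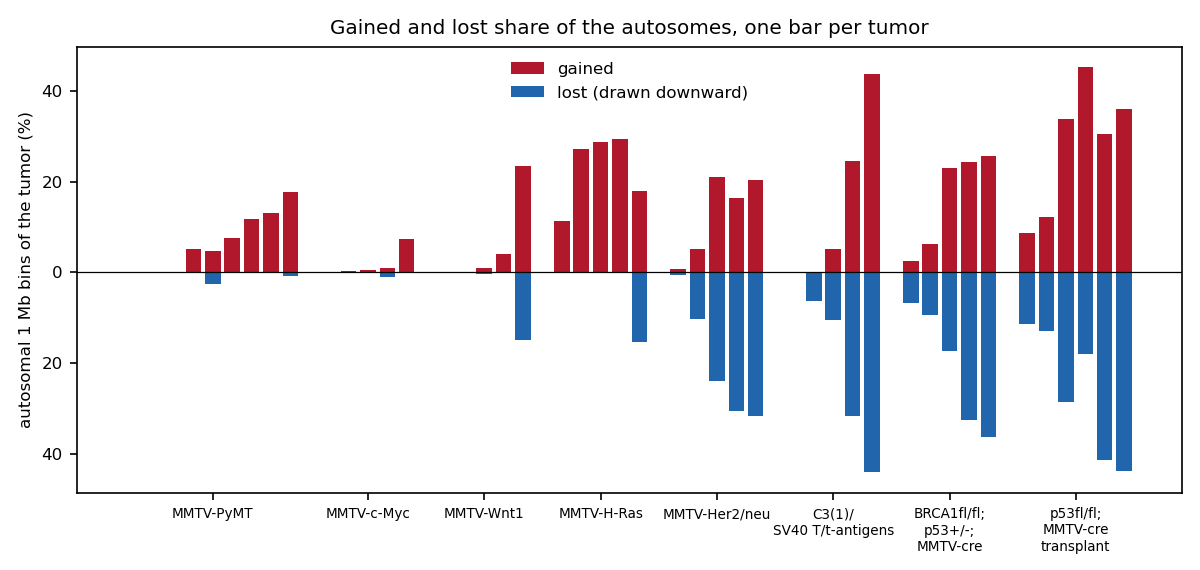
Share of autosomal 1 Mb bins that were gained (red, upward) or lost (blue, downward), 1 bar per tumor, ordered within a model by the altered share; the vertical axis is in percent. MMTV-PyMT tumors reached at most 17.8% gained and 2.48% lost, and the empty places at the left of the model are the 3 tumors with at most 1 altered bin.

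Losses were few in MMTV-PyMT, as they were in MMTV-c-Myc. The lost share was 2.48% in PyMT_11570, 0.875% in PyMt 3, 0.146% in PyMt342, 0.0486% in PyMt317 and 0% in the 5 remaining MMTV-PyMT tumors. Its mean was 0.394% ± 0.832 (SD, n = 9) against 13.3% ± 14.8 (SD, n = 36), with an exact permutation p of 0.0117. This call was lost over the arrays of slides shared with other models (-8.33 points, exact permutation p = 0.0857). The difference did not pass against MMTV-c-Myc, with a lost share of 0.224% (adjusted exact permutation p = 0.844), nor against MMTV-Wnt1, with 3.08% (adjusted exact permutation p = 0.353). The MMTV-Wnt1 value rested on the tumor whose Wnt1 probe goes against its label, and without it was 0.0972%. The gained share was 6.70% ± 6.45 (SD, n = 9) against 14.98% ± 13.8 (SD, n = 36), a difference of -8.28 points that did not pass (exact permutation p = 0.0872). Of the 1313 altered bins summed over the MMTV-PyMT tumors, 94.4% were gains, and of the 20968 of the other models 52.9% were. This share was 89.3% in MMTV-c-Myc, 88.3% in MMTV-H-Ras and 65.0% in MMTV-Wnt1, and 39.7 to 51.6% in the other 4 models. No MMTV-PyMT tumor had lost a whole chromosome, while 19 of the 36 others had lost at least 1, for 72 whole losses in all. None of 5 MMTV-c-Myc tumors, 1 of 5 MMTV-H-Ras and 1 of 5 MMTV-Wnt1 tumors had such a loss, and no test of single models was made of it.

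The pooled difference was set by some of the other models and not by all. At an adjusted p under 0.05 over 7 models, MMTV-PyMT differed in altered share from 4 (57.1%). The p53fl/fl;MMTV-cre transplant tumors had a mean of 53.8%, a difference of -46.7 points (adjusted exact permutation p = 0.00140), and all 9 MMTV-PyMT tumors lay below the lowest of them. The mean of BRCA1fl/fl;p53+/-;MMTV-cre tumors was 36.9% (difference -29.8 points, adjusted exact p = 0.0117) and that of MMTV-H-Ras tumors 26.0% (difference -18.9 points, adjusted exact p = 0.00699). The MMTV-Her2/neu mean was 32.2% (difference -25.1 points, adjusted exact p = 0.0201), a call that was lost without the 5 doubted arrays (-24.1 points, adjusted exact p = 0.0557) or without MMTV-Her2/neu replicate 1, 2 or 5. The C3(1)/SV40 T/t-antigens tumors had a mean of 33.3% with values from 0.0972 to 87.9%, and the difference of -26.2 points did not pass (adjusted exact p = 0.0706), but did without C3(1)/SV40 T/t-antigens replicate 1 (-32.9 points, adjusted exact p = 0.0450) or 2 (-34.6 points, adjusted exact p = 0.0255), with the authors' intervals (-24.3 points, adjusted exact p = 0.0413) and with normexp (-21.9 points, adjusted exact p = 0.0497). MMTV-Wnt1 tumors had a mean of 8.81% (adjusted exact p = 0.837) and MMTV-c-Myc tumors a mean of 2.09%, which was 5.00 points below MMTV-PyMT (adjusted exact p = 0.179). The MMTV-Wnt1 mean rested on 1 tumor at 38.5%, the array whose Wnt1 probe goes against its label; without it, MMTV-PyMT was 5.69 points above MMTV-Wnt1. In gained share 2 models passed, p53fl/fl;MMTV-cre transplant with 27.8% and MMTV-H-Ras with 22.96% (adjusted exact p = 0.0122 for each). MMTV-H-Ras tumors had a lost share of 3.05%, where the difference did not pass (adjusted exact p = 0.417). All of it came from 1 tumor at 15.3%, and the other 4 had 0% lost.

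Slides held arrays of several models, and 7 MMTV-PyMT arrays shared a slide with another model. On these, 5 of 7 MMTV-PyMT tumors had a lower altered share than the mean of the tumors beside them, with a mean difference of -4.21 points and a range from -24.6 to 11.3. In gained share 3 of 7 were lower, with a mean difference of 1.49 points. Over the arrays of these slides alone the difference in lost share was -8.33 points (exact permutation p = 0.0857). The tumors beside them were of the MMTV-c-Myc, MMTV-Her2/neu, C3(1)/SV40 T/t-antigens and MMTV-Wnt1 models, so that slide and choice of model cannot be told apart here.

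What the MMTV-PyMT tumors did carry was mostly gain of whole chromosomes. A whole chromosome was counted where at least 90% of its bins had 1 state, and 86.7% of all altered MMTV-PyMT bins lay in such chromosomes (79.2% in the other models). In single tumors this share was 87.7 to 100% in MMTV-H-Ras and 0 to 92.3% in BRCA1fl/fl;p53+/-;MMTV-cre. A high share was thus not particular to MMTV-PyMT. There were 11 whole gains in 5 of the 9 tumors. PyMt 3 had gained chromosomes 11, 14, 15 and 17, with chromosome means of 0.42, 0.38, 0.43 and 0.43 in log2 ratio. PyMt341 had gained chromosomes 11 (0.40), 15 (0.39) and 18 (0.73). PyMt435 had gained chromosomes 6 (0.46) and 10 (0.33), PyMt342 chromosome 11 (0.46) and PyMt317 chromosome 2 (0.27). The log2 ratio of 3 copies against 2 is 0.58, and the mean of chromosome 18 alone lay above it. Chromosome 11 was gained whole in 3 tumors and chromosome 15 in 2, and each of the other 6 chromosomes in 1.

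**Figure D2:**
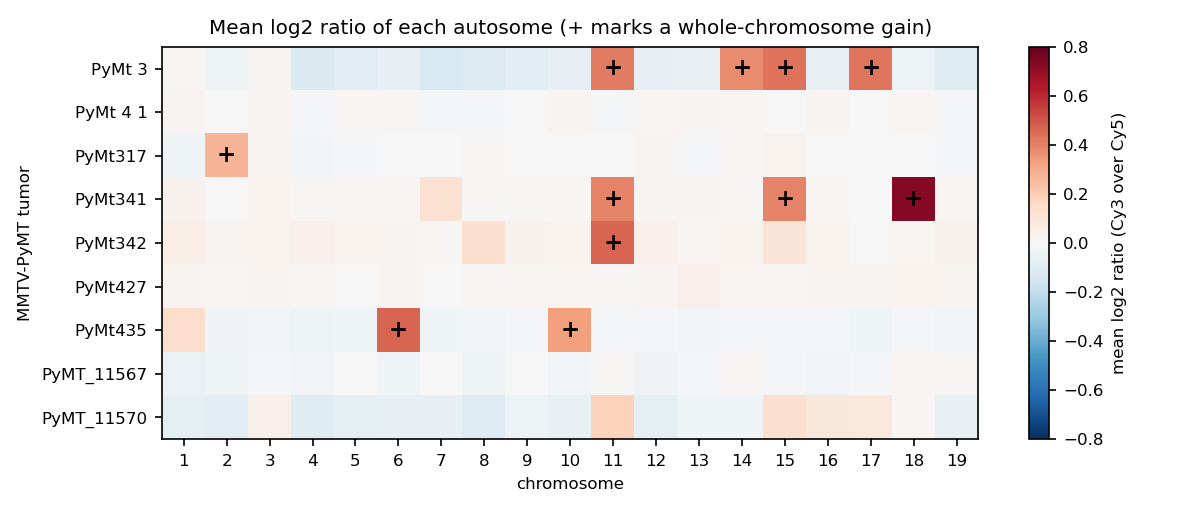
Mean log2 ratio (Cy3 over Cy5) of each of the 19 autosomes (columns) in each of the 9 MMTV-PyMT tumors (rows), from blue (below 0) to red (above 0); a plus sign marks a whole chromosome called gained. The 11 marked cells fall in 5 tumors, 3 of them in chromosome 11. PyMT_11570 has no marked cell. Its paler red cells are not all partial gains, since its chromosome 16 (0.09) had no called gain.

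PyMT_11570 had no whole gain but 15 called segments. Its largest changes were a gain of distal chromosome 11 from 106435398 to 121652625 (mm8, the build of the files; mean 0.43 over 472 probes), a stretch of chromosome 11 from 90353998 to 93829834 (0.73 over 21 probes), the proximal part of chromosome 15 from 3229082 to 73407175 (0.24 over 685 probes) and proximal chromosome 17 from 3075728 to 23316159 (0.22 over 252 probes). It also held 4 of the 5 MMTV-PyMT losses of at least 3 Mb, on chromosomes 1, 2, 8 and 10, at means of -0.21 to -0.36. The remaining loss, on distal chromosome 12, was in PyMt 3 (-0.21). PyMt 4 1, PyMt427 and PyMT_11567 had 2, 4 and 3 called segments, the longest of 1.83 Mb. Of the 69 segments called in MMTV-PyMT tumors, 42 were under 3 Mb. The mean over each of these 42 stretches reached the threshold in the same direction in at least 1 other tumor of the series. Whole-chromosome changes, and probe noise over short stretches, also bring such a mean to the threshold, so that it does not show that a segment recurred. Some shallow shifts stayed below the threshold of a call: chromosome 1 of PyMt435 had a mean of 0.14, chromosome 8 of PyMt342 0.13 and chromosome 15 of PyMt342 0.10.

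No gain was common to most MMTV-PyMT tumors. Of the 2057 bins, 1209 were gained in none of the 9 tumors, 631 in 1, 57 in 2, 145 in 3 and 15 in 4, and no bin was gained in 5 or more. The 15 bins with 4 tumors all lay on chromosome 11. Losses were still less shared, with 1986 bins lost in no tumor, 69 in 1 and 2 in 2.

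Chromosome 11 was the 1 chromosome whose mean differed between MMTV-PyMT and the rest. It holds Egfr, Erbb2 and Trp53 among many other genes. Its mean log2 ratio was 0.46 in PyMt342, 0.42 in PyMt 3, 0.40 in PyMt341 and 0.19 in PyMT_11570, and between -0.01 and 0.01 in the other 5 tumors. The tumors fell into 4 with gain and 5 at 0. Over the 9 tumors the mean was 0.16 ± 0.21 (SD, n = 9), against -0.02 ± 0.14 (SD, n = 36), and the difference of 0.19 had an exact permutation p of 0.00254 and an adjusted p of 0.0482 over 19 autosomes, the 1 chromosome of 19 (5.26%) to pass. The call was lost on leaving out any 1 of 26 of the 45 tumors, among them PyMt 3, PyMt341, PyMt342 and PyMT_11570, the 4 with gain. Over all 45 such fits the difference was 0.15 to 0.21 and the adjusted exact permutation p at most 0.139. Without the 5 doubted arrays of other models no chromosome passed.

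No tumor of another model had gained most of proximal chromosome 11, while some had gained its distal end. A part was counted as gained or lost where most of its bins were. Up to 106435398, the start of the distal gain in PyMT_11570, chromosome 11 was gained in 3 of 9 MMTV-PyMT tumors (33.3%, with a 95% interval of 7.49 to 70.1% by Clopper-Pearson) and in 0 of 36 others (upper bound 9.74%), 8 of which had lost it. Beyond that point it was gained in 4 of 9 MMTV-PyMT tumors (44.4%, 13.7 to 78.8%) and in 8 of 36 others, which were 4 of 5 MMTV-c-Myc, 3 of 5 BRCA1fl/fl;p53+/-;MMTV-cre and 1 of 5 MMTV-Wnt1 tumors. The mean log2 ratio of this distal part was 0.17 ± 0.21 (SD, n = 9) in MMTV-PyMT and 0.68 ± 0.48 (SD, n = 5) in MMTV-c-Myc. The mean over the whole chromosome was 0.16 in MMTV-PyMT and 0.16 in MMTV-c-Myc, while the proximal mean was 0.15 and 0.07. Fisher's exact test on the number of tumors with a call gave 0 of 4114 bins and directions (0%) at an adjusted p under 0.05. At an unadjusted p under 0.05 it gave 81 bins for gains and 118 for losses. Of the 81, 80 lay on chromosome 11 with more gains in MMTV-PyMT (smallest exact p = 0.00592, adjusted p = 0.676), and the 118 lay on chromosomes 7 and 10, lost in no MMTV-PyMT tumor and in 13 or 14 others.

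**Figure D3:**
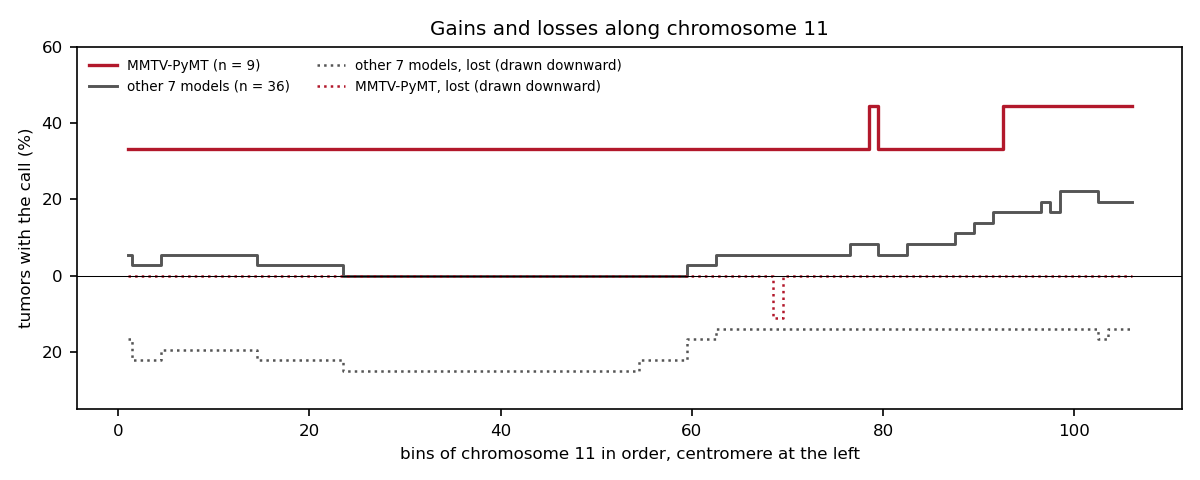
Percent of tumors with a gain (solid lines, upward) or a loss (dotted lines, downward) in each 1 Mb bin of chromosome 11, in order from the centromere, for the 9 MMTV-PyMT tumors (red) and the 36 tumors of other models (grey). The red line runs at 33.3% and steps to 44.4% in 1 bin and at the distal end, where the grey line climbs to 22.2%.

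On chromosome 10 the mean of the 36 other tumors lay below 0, while most MMTV-PyMT tumors were near 0. Its mean was 0.33 in PyMt435 and from -0.07 to 0.03 in the other 8 MMTV-PyMT tumors. The MMTV-PyMT mean was 0.03 ± 0.12 (SD, n = 9) and that of the others -0.14 ± 0.16 (SD, n = 36), and the difference of 0.17 had an exact permutation p of 0.00645 and an adjusted p of 0.0613. The whole chromosome was called lost in 10 of the 36 others, 4 of them MMTV-Her2/neu and 3 C3(1)/SV40 T/t-antigens tumors, and in no MMTV-PyMT tumor. In MMTV-c-Myc and MMTV-Wnt1 tumors chromosome 10 was near 0 as well, with means of 0.03 and -0.00.

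**Figure D4:**
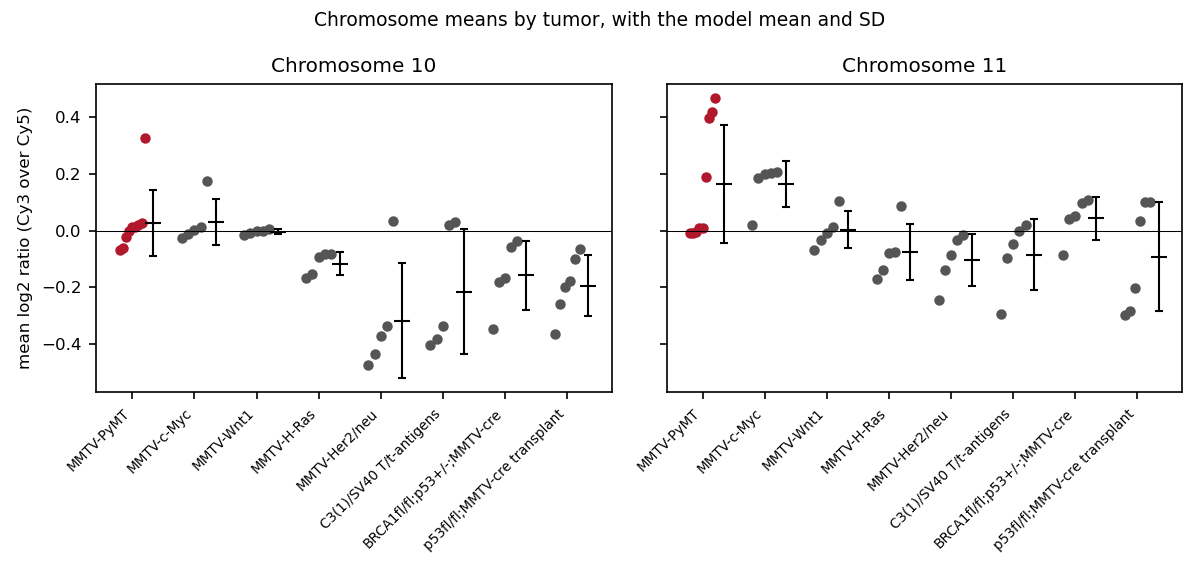
Mean log2 ratio (Cy3 over Cy5) of chromosome 10 (left) and chromosome 11 (right), 1 point per tumor by model, with the model's mean and SD as a bar; MMTV-PyMT is red. On chromosome 11, 4 MMTV-PyMT tumors lie at 0.19 to 0.46 and 5 at 0, and on chromosome 10 the low points are those of other models.

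Chromosomes 15 and 6 were gained in tumors of MMTV-PyMT and of other models. Chromosome 15, which holds Myc, was gained over most of its bins in 3 of 9 MMTV-PyMT tumors (33.3%, exact 95% interval 7.49 to 70.1%) and in 10 of 36 others (27.8%, 14.2 to 45.2%), 4 of them MMTV-H-Ras tumors. Its mean was 0.12 in both groups (difference -0.00, exact permutation p = 0.994). Chromosome 6 was gained in 1 of 9 MMTV-PyMT tumors and in 12 of 36 others, with means of 0.04 and 0.20 (exact permutation p = 0.0656, adjusted p = 0.415). Chromosome 7 was lost whole in 10 of 36 others and in no MMTV-PyMT tumor (means -0.01 and -0.11, exact permutation p = 0.108, adjusted p = 0.419).

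Bin by bin, limma with a term for each model called 56 of 2057 bins (2.72%) at an adjusted p under 0.05, 52 higher (2.53%) and 4 lower (0.194%) in MMTV-PyMT. The higher ones were 34 bins of chromosome 11 between 5000001 and 91000000, with differences of 0.19 to 0.30, and 18 bins of chromosome 10, with differences of 0.19 to 0.28. The longest run was 6 bins of chromosome 11 from 45000001 to 52000000, with a mean of 0.14 in MMTV-PyMT and -0.08 over the other models. Over the 34 bins of chromosome 11, PyMt 3 had 0.42, PyMt342 0.42, PyMt341 0.37, PyMT_11570 0.23 and PyMT_11567 0.09, and the other 4 tumors lay from -0.01 to 0.01. Over the 18 bins of chromosome 10, PyMt435 had 0.32 and the others -0.00 to 0.15, while MMTV-Her2/neu tumors had a mean of -0.31. The 4 lower bins, 1 on chromosome 3 and 3 on chromosome 5, were below 0 in all 9 MMTV-PyMT tumors, with means of -0.26 and -0.17. No MMTV-PyMT tumor had a called loss in them, while 8 or 9 tumors of other models had a called gain. The chromosome 3 bin held 3 probes, and those of chromosome 5 held 4 to 15. Without PyMT_11570, without PyMT_11567 and PyMT_11570, without PyMt342 or without the 5 doubted arrays no bin was called by limma (221 to 256 at an unadjusted p under 0.05), and without PyMt 3 or PyMt341 5 were. With slide or scan date as a fixed term, in fits of the linked models chosen after seeing the data, limma called 0 bins as well (73 and 78 at an unadjusted p under 0.05).

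Among 20034 gene names, limma called 101 (0.504%), 96 higher (0.479%) and 5 lower (0.0250%) in MMTV-PyMT. Of the higher ones 80 lay on chromosome 11, 15 on chromosome 10 and 1 on chromosome 12. Over all 1582 gene names of chromosome 11 the median difference was 0.18, with 93.3% above 0, and over the 997 of chromosome 10 it was 0.17, against a median of 0.01 over all genes. A gene's value is a mean over few probes, and 43 of the 101 had 1 probe. None of the 101 separated MMTV-PyMT from all other tumors. Without PyMT_11570 limma called 15 genes, without PyMT_11567 and PyMT_11570 2, without PyMt 3 0 and without the 5 doubted arrays 35. With slide as a fixed term it called 1 gene (1149 at an unadjusted p under 0.05), and with scan date 0 (839), each against the models linked to MMTV-PyMT by it, in fits chosen after seeing the data.

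Egfr, the receptor of epidermal growth factor on proximal chromosome 11 (2 probes, 16707588 to 16759063), passed as the 1 gene called among 17 listed oncogenes. Over all genes 0.504% were called, and on chromosome 11 80 of 1582, so that 1 call says nothing about the list. The oncogene Myb on chromosome 10, which is in no list and was picked out after its values were seen, passed too (difference 0.28, limma adjusted p = 0.0423). The log2 ratio of Egfr was 0.61 in PyMt 3, 0.53 in PyMT_11570, 0.38 in PyMt342, 0.31 in PyMT_11567, 0.31 in PyMt341 and 0.11 in PyMt317, and from -0.03 to 0.06 in the other 3. Only PyMt 3, PyMt342 and PyMt341 had a called gain at this place. PyMT_11570 and PyMT_11567 had the highest probe SD among MMTV-PyMT arrays (0.44 and 0.47), and its part in their readings was not tested. The values of other models ran from -0.48 to 0.53 and overlapped those of MMTV-PyMT. The difference was 0.35 (limma SE 0.09, adjusted p = 0.0472), and the call was lost on leaving out any of 27 tumors. Brca1, the DNA repair gene deleted in another model, also passed with a difference of 0.45 (SE 0.11, limma adjusted p = 0.0472). Its MMTV-PyMT values ran from -0.00 to 0.76, and the other models' mean of -0.21 includes the Brca1-deleted tumors at -1.79, while the tumors of the 6 remaining models had a mean of 0.06. This call was lost on leaving out any 1 of 25 tumors and under 10 of 15 other settings.

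Among further genes on chromosome 11 with the largest differences were Rdm1 (0.74), BC022224 (0.62), Zpbp (0.56), Ccnjl (0.49), Foxi1 (0.49), Phf23 (0.47), AK046551 (0.47) and D11Bwg0434e (0.46), with limma adjusted p-values from 0.0129 to 0.0458. Rdm1, whose product is related to a recombination protein, was at 1.98 in PyMT_11567 and 1.86 in PyMT_11570, and from 0.01 to 0.71 in the other 7 tumors. Its single probe read highest in the 2 MMTV-PyMT arrays with the highest probe SD, and the part of that SD in the reading was not tested. Zpbp, which codes for a sperm protein that binds the egg coat, was above 0 in all 9 tumors, with 0.33 in PyMt317 as the lowest, and stood at 0.97 in PyMt 4 1, where chromosome 11 was at -0.01. Within the runs of bins, the cytokine gene Il13 (0.42), the annexin gene Anxa6 (0.39) and Pdlim4 (0.37) passed on chromosome 11, and Gprc6a, an amino acid receptor gene (0.28), and Nhsl1 (0.53) on chromosome 10. The call was lost on leaving out any 1 of 22 tumors for Nhsl1, 20 for Gprc6a, 5 for Il13, 5 for Pdlim4 and 2 for Anxa6.

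The 5 lower genes were Aph1b, a subunit of gamma-secretase on chromosome 9 (-1.18), Gprc5d on chromosome 6 (-0.63), BC049966 on chromosome 17 (-0.54), and Mrpl33, a mitochondrial ribosomal protein gene (-0.35), and Tnip2 (-0.30) on chromosome 5. Aph1b was at -1.57 in PyMT_11567 and -1.44 in PyMT_11570, and from -0.65 to 0.23 in the other 7 tumors, while other models reached 4.78. Gprc5d was at 0.38 in PyMt435, which had gained chromosome 6, and from -0.40 to -0.07 in the other 8. Mrpl33 and Tnip2 were below 0 in all 9 tumors, from -0.62 to -0.07 and from -0.42 to -0.02. Their differences from other models were no larger than 0.35 in size, and the call was lost on leaving out any 1 of 29 tumors for Tnip2, 23 for BC049966, 19 for Mrpl33, 5 for Gprc5d and 4 for Aph1b.

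For the partners of middle T antigen the counts are a description, beside 0.504% called over all genes. Of 18 measured genes of this list (the Src family, protein phosphatase 2A subunits, Shc1, Grb2, Gab1, the phosphatidylinositol 3-kinase subunits, Plcg1 and Ywha adaptors), none passed in limma; their median difference was 0.01, as over all genes (0.01), and 11 lay above 0. Src itself had a difference of 0.03 and Pik3ca, the catalytic subunit, 0.14. Shc1, an adaptor that middle T antigen recruits, had the lowest, -0.40 (1 probe, limma adjusted p = 0.0733), with values of -1.26 in PyMT_11567 and -1.02 in PyMT_11570 and from -0.49 to 0.03 in the rest. Ppp2ca, the catalytic subunit of protein phosphatase 2A on chromosome 11, had the highest, 0.26 (limma adjusted p = 0.436).

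At 0.504% of all genes called, 0 calls in a list of 10 to 18 genes say nothing about the list, and this holds for the lists that follow. None of 18 genes of the PI3K-Akt-mTOR list passed (median difference 0.04, 11 above 0), with Rps6kb1, an S6 kinase gene on chromosome 11, highest at 0.30 (limma adjusted p = 0.0960). None of 14 genes of the Ras-MAPK list passed (median 0.01, 7 above 0). None of 10 mammary lineage genes (median 0.04) and none of 18 metastasis genes (median -0.02) passed. The highest of the latter was Nme1, a known metastasis suppressor gene on chromosome 11 (1 probe, 0.89, limma adjusted p = 0.0730), at 2.65 in PyMT_11567, 2.34 in PyMT_11570 and -0.21 to 0.88 in the other 7. Of 13 tumor suppressors, Brca1 passed, and of 17 oncogenes known to be amplified in mammary tumors, Egfr (medians 0.01 and 0.06). Both lie on chromosome 11, where 80 of all 1582 gene names passed. For Brca1, the mean of the other models includes the tumors with that gene deleted. Erbb2, the receptor gene targeted in another model and lying on chromosome 11, was at 0.27 ± 0.27 (SD, n = 9) with a difference of 0.22 (limma adjusted p = 0.290).

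Of 22 measured cancer genes of chromosome 11, chosen for their place on it, 20 lay above 0 with a median difference of 0.19, about that of all genes of the chromosome, and 2, Egfr and Brca1, passed, against 80 of all 1582 on the chromosome. Xpo1, an export receptor gene of proximal chromosome 11, had a difference of 0.34 (limma adjusted p = 0.116) and Trp53 0.22 (limma adjusted p = 0.113). Of the 6 measured candidates that the study took from the distal end, none passed, with a median difference of 0.02 and a range from -0.15 to 0.12. Their list was chosen on tumors of this series and is no independent sample. None of 16 measured cancer genes of chromosome 15 passed (median 0.03).

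The deepest change in any MMTV-PyMT tumor was an amplification at distal chromosome 7 in PyMt341. It ran from 139088198 to 142194883 (mm8), 3.11 Mb, in 2 blocks of 108 and 32 probes with means of 2.75 and 2.77 in log2 ratio. Between the blocks, from 141129697 to 141483295, 30 probes were at a mean of -0.05. In the 2 Mb on either side the means were 0.05 and -0.05. The blocks carried 78 gene names, among them Hras1 (2.76), the Ras oncogene whose activated form drives another model, the interferon regulator gene Irf7, the interferon-induced Ifitm1 and Ifitm3, the sirtuin gene Sirt3, the cathepsin gene Ctsd and the mucin genes Muc5ac, Muc5b and Muc6. Over the same stretch the other 8 MMTV-PyMT tumors lay between -0.17 and 0.02, and tumors of other models between -0.45 and 0.42. Hras1 (1 probe) was at -0.60 to 0.10 in the other 8 MMTV-PyMT tumors, and its difference from other models, 0.29 (limma adjusted p = 0.471), was -0.03 without PyMt341. The amplification was found in 1 of 9 tumors.

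**Figure D5:**
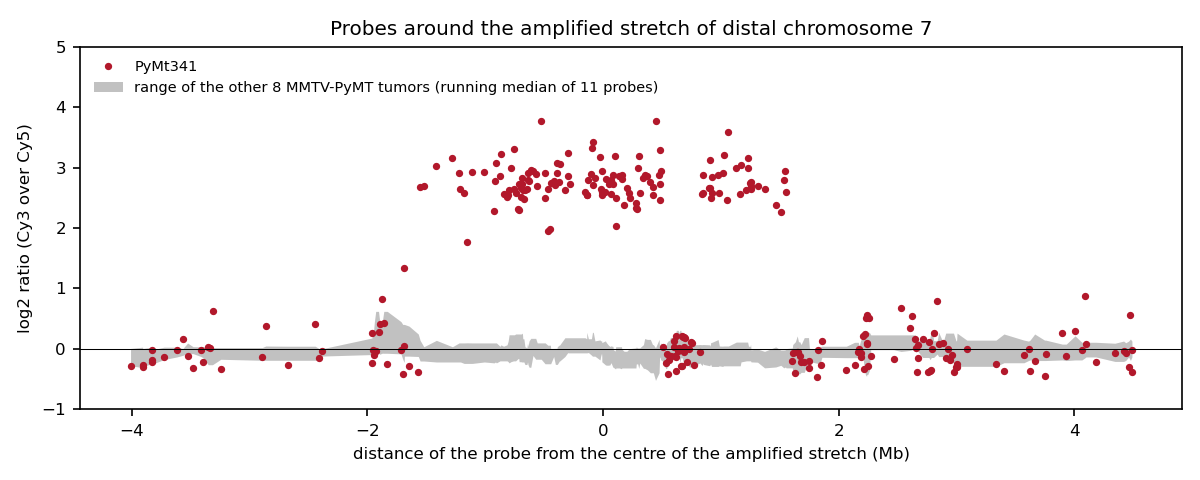
Log2 ratio (Cy3 over Cy5) of single probes of PyMt341 (red points) by distance from the centre of the amplified stretch of chromosome 7 in Mb, with the range of the other 8 MMTV-PyMT tumors as a grey band (running median of 11 probes). The points stand at about 2.75 in 2 blocks with 30 probes near 0 between them, and drop to 0 at both ends.

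The single probe of Myc (chromosome 15, 61816154 to 61816213) read above 0.5 in 7 of the 9 MMTV-PyMT tumors, in 5 of them with its neighbours near 0. Its log2 ratio was 3.34 in PyMt435, 2.59 in PyMt427, 2.56 in PyMt342, 1.78 in PyMt341, 0.79 in PyMt 3, 0.66 in PyMt 4 1 and 0.65 in PyMt317. It was -0.06 in PyMT_11567 and -0.18 in PyMT_11570. The median of the nearest 20 probes, 10 on each side, was 0.55 in PyMt 3 and 0.31 in PyMt341, which had gained the chromosome, and between -0.08 and 0.07 in the other 7 tumors. The Cy3 signal of the probe was 6876 in PyMt435 against 766 in PyMT_11567, while the Cy5 signal was 358 to 845 in all 9. The probe was well above background and not saturated on any of these arrays. In other models it exceeded 0.5 in 6 of 36 tumors, and in 2 of these the neighbours were at about 0, 1 p53fl/fl;MMTV-cre transplant tumor at 5.80 and 1 MMTV-c-Myc tumor at 1.00. MMTV-PyMT had a mean of 1.35 ± 1.26 (SD, n = 9), and the difference of 1.09 did not pass (limma adjusted p = 0.162). It passed without the p53fl/fl;MMTV-cre transplant tumor at 5.80 (1.23, limma adjusted p = 0.0109) and with array weights (1.63, limma adjusted p = 0.00302). In MMTV-c-Myc, the model with a Myc transgene, the probe was at 0.17 ± 0.57 (SD, n = 5). What sets the signal of this probe was not tested.

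Chromosome X lay outside the comparisons. Its median log2 ratio was 0.91 to 1.13 in 7 of the 9 MMTV-PyMT tumors, 0.36 in PyMt341 and -0.05 in PyMt 3, against 0.62 to 1.79 in the tumors of other models. PyMt 3 and PyMt341 thus lay below all the others, and among MMTV-PyMT tumors they had the most whole-chromosome gains (4 and 3). The sex of the mice in the reference pool is not given in the labels, and its part in these values was not tested.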

How the data were processed

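DNA of 45 primary mouse mammary tumors, 9 of them MMTV-PyMT, had been hybridized against pooled spleen DNA on 2-color Agilent arrays, 1 array per tumor. The authors deposited scanner files whose red and green intensity values came from Feature Extraction (version 10.7 in the submitters' processing notes, 9.5.1.1 in the file headers), and the deposited log10 ratios in them are Cy5 over Cy3 after background subtraction and dye normalization. The authors also deposited a table of aberrant intervals with mean log2 ratios, made with the ADM-2 algorithm. It was used for direction and as an alternative. Columns of the authors' table that belong to no sample numbered 0.

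The log10 ratios were turned to log2 of Cy3 over Cy5, spots of a probe were averaged after removal of control and outlier spots, and each array was centred on its autosomal median over 40666 probes. No loess was applied. Probes were segmented by circular binary segmentation (split statistic over 6, at least 5 probes, single deviating probes drawn in first), and a segment was called from a mean of 0.2 in either direction. Bins of 1 Mb held a median of 16 probes. Of 20034 gene names tested, 9319 had 1 probe and 14685 matched RefSeq; 56 names on several chromosomes were left out. Coordinates are mm8. MMTV-PyMT arrays had signals 4.83 to 11.0 (Cy3) and 2.09 to 14.4 (Cy5) times background, with 97.4 to 99.8% of probes well above background.

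Shares and chromosome means were compared by two-sided exact permutation tests over tumors, bin calls by Fisher's exact test, and bin and gene values by limma 3.58.1 (R 4.3.3) with a mean for each of 8 models, MMTV-PyMT against the mean of the other 7. Calls were made at 0.05 with Benjamini-Hochberg adjustment, except that the pooled shares and called segments have unadjusted p-values. The groups came from the model in the labels. Genes were named where they belong to 11 lists, were among the 3 largest differences in the 10 longest runs of called bins or among the 10 highest or lowest called genes, or lay in MMTV-PyMT segments of at least 1 in size with at most 10 names; the genes named in the chromosome 7 amplification and the Myc probe's neighbours were chosen after their values were seen. The members and lists were chosen with earlier results of these data known. Some genes that the rule names are not reported here. The scripts were tested on simulated data. Alternatives covered centring, background, normalization, thresholds, segmentation, model terms and the arrays used, and 4 of them were added after seeing the data.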

Additional observations from a re-analysis of the deposited data

Results flagged for a closer look

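Of 57 groups of values tested, 14 held a tumor farther from the rest of its group than the critical value of Dixon's test. Chance gives about 1 in 20 for independent groups of normal spread. Chromosome means near 0 or gained are not of that kind, and some of the genes had been named for their values. The 14 are thus a description. In MMTV-PyMT, 7 of these were chromosome means, each in 1 tumor. PyMt 3 stood apart on chromosomes 14 (0.38) and 17 (0.43), PyMt435 on chromosomes 6 (0.46) and 10 (0.33), PyMt317 on chromosome 2 (0.27) and PyMt341 on chromosome 18 (0.73), all of them whole gains. PyMt342 stood apart on chromosome 8 at 0.13, below the threshold of a call. PyMT_11570 stood apart in lost share, at 2.48% against 0.875% in the next tumor.

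Among genes, Hras1 was at 2.76 in PyMt341, within the amplification of chromosome 7, with the next MMTV-PyMT tumor at 0.10. Gprc5d (0.38) and Met (0.50), both on chromosome 6, were highest in PyMt435, which had gained that chromosome. In other models, the altered share stood apart at 38.5% in Wnt_4635 of MMTV-Wnt1, at 7.44% in C Myc_04004021 of MMTV-c-Myc and, as the lowest of its group, at 11.3% in Hras_An2_3 of MMTV-H-Ras. The part of the probe signal or of the array in these values was not tested.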

How the results depend on the processing

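The altered share difference (-21.2 points) was lost without PyMT_11567 and PyMT_11570 (-20.2, exact permutation p = 0.0505) and over the arrays of shared slides (-8.41), where those of the lost share (-8.33) and of called segments (-8.44) were lost too; segments were also lost where single deviating probes were kept (-75.8). The gained share passed in 1 of 15 other settings, outside chromosome 11 (-10.3, exact permutation p = 0.0410). In another setting its difference was as small as -0.0868 points, and the largest exact permutation p was 0.978. Against MMTV-Wnt1 the altered share turned to 4.38 points at a threshold of 0.3, 0.954 with a running median, 1.68 centred on the density peak, 4.25 with normexp and 5.69 without the 5 doubted arrays or MMTV-Wnt1 replicate 1. No chromosome passed (0) with normexp, without PyMT_11570, without PyMT_11567 and PyMT_11570, without the 5 doubted arrays or on shared slides.

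Called bins (56) went to 0 in limma with the other tumors as 1 group, with slide or scan date as fixed terms over linked models, without the 5 doubted arrays, without PyMT_11570 and without PyMT_11567 and PyMT_11570, and to 121 with array weights (27 of them shared with the 56). Called genes (101) were 36 as 1 group, 771 with array weights, 44 with slide as a random block, 894 with array position, 59 with dye method, 1 with slide and 0 with scan date as fixed terms, 35 without the doubted arrays, 15 without PyMT_11570, 2 without PyMT_11567 and PyMT_11570, 288 with the density peak, 559 with normexp and 350 with loess. Where no gene was called, 839 (scan date) and 2686 (without PyMt 3) had an unadjusted p under 0.05.

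Leaving out 1 tumor at a time, the difference was -22.7 to -19.5 points for altered, -9.67 to -7.41 for gained and -13.3 to -12.1 for lost shares, and -21.5 to -18.4 segments. Models passed in 3 to 5 cases, chromosomes in 0 to 2, bins in 0 to 118 (0 without PyMt342 or PyMT_11570, 5 without PyMt 3 or PyMt341, 118 without MMTV-Her2/neu replicate 4), genes in 0 to 245 (0 without PyMt 3, 13 to 21 without PyMt341, PyMt342, PyMT_11567 or PyMT_11570, 245 without BRCA1fl/fl;p53+/-;MMTV-cre replicate 4) and Fisher bins in 0 to 0. The altered share difference from MMTV-Wnt1 was -3.89 to 5.69 points, and that of Hras1 -0.033 (without PyMt341) to 0.39. Slide and scan date could not be fitted as fixed terms over all models; the linked fits, the fits without PyMT_11567 and PyMT_11570 and the segmentation of unaltered probes were chosen after seeing the data. No paired analysis was possible because the labels give no replicate numbers that tumors of different models share; the slide was used as a block in its place. Signal over background and 1 array per tumor limit what single probes show.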
